A study of Mus musculus with 6 samples.

Results

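The genes described here are 52 genes of the lysosome, the acid compartment in which a macrophage digests what it has taken up. They were picked by name: 11 proteases (9 cathepsins, Lgmn and Tpp1), 11 glycosidases and sulfatases, 9 proteins that handle lipid (with progranulin), 5 membrane proteins, 14 subunits and accessory proteins of the proton pump, and the transcription factors Tfeb and Tfe3. All 52 were among the 17313 genes of the table, and all 52 passed the filter on low values that left 13260 genes for testing. RNA was measured in 6 libraries of macrophages grown from bone marrow of mice on the C57BL/6 background. Every mouse carried floxed Hdac2 alleles and had been given LLC1 cells, a mouse lung carcinoma line, intravenously, and marrow was harvested at day 20. The WT group (Hdac2 fl/fl, 3 libraries) had no Cre, and the KO group (Hdac2 fl/fl with LysM-Cre, 3 libraries) had a Cre driven from Lyz2, the lysozyme gene that is active in myeloid cells. Age and sex of the mice, and whether each library came from a mouse of its own, are not given in the labels, and the p-values therefore speak only to differences among these libraries, which may be technical.

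Lysosomal enzymes are made in the endoplasmic reticulum, tagged with mannose 6-phosphate and delivered to an organelle whose pH is kept low by the vacuolar proton pump. The pump has a V1 sector that splits ATP in the cytosol and a membrane-embedded V0 sector that lets protons through. TFEB and TFE3, with their relatives MITF and TFEC, bind a short E-box in the promoters of many lysosomal genes and raise their transcription when the mTORC1 kinase is inactive. In macrophages the compartment serves digestion of engulfed cells, antigen processing and cholesterol release.

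Promoters were searched for that E-box first, because it ties many of these genes to TFEB and TFE3 in the literature. RefSeq windows (GRCm38.p6, 250 bases before to 50 after the annotated start) were found for 45 of the 52 genes, and Asah1, Atp6v1b2, Atp6v1c1, Atp6v1h, Ctsb, Ctsh and Npc1 were not matched. The letters TCACGTG, read on both strands, occurred in 14 of the 45 genes (31.1%), against 6.98% of the 10176 tested genes with a window and 4.29% of all 27025 genes in the table of promoters. The shorter core CACGTG, contained in every such match, was found in 16 of the 45 (35.6%) and in 11.8% of the tested genes, and the variant TCATGTG in 8 (17.8%) and in 2.67%. Genes with several annotated starts (6 of the 45) were counted when any window matched.

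The 14 genes with TCACGTG were spread over 4 classes. They comprised 3 of 9 proteases (Ctsa, Ctsd and Lgmn), 5 of 11 glycosidases and sulfatases (Gla, Gaa, Glb1, Naglu and Arsa), 2 of 5 membrane proteins (Lamp1 and Mcoln1) and 4 of 11 proton pump genes (Atp6v0b, Atp6v0d1, Atp6v0e and Atp6v1a), and 0 of 7 lipid-handling genes and 0 of 2 factors. They held 22 distinct cores, of which 15 began within 100 bases before the start, 5 further upstream and 2 after it. Lamp1 held 4 cores, from 61 to 15 bases before its start. The windows below belong to the gene with the largest KO against WT difference among the matching genes of each class, and capitals mark TCACGTG or its reverse complement, which overlap where the flanks on both sides fit.
Ctsa (chr2:164833523-164833822, plus strand): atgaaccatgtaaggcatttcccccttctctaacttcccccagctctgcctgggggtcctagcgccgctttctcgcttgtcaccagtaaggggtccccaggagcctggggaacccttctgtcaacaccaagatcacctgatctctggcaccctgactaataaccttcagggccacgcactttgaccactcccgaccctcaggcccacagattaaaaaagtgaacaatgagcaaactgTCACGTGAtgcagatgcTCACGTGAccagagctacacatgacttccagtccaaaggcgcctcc
Gla (chrX:134600956-134601255, minus strand): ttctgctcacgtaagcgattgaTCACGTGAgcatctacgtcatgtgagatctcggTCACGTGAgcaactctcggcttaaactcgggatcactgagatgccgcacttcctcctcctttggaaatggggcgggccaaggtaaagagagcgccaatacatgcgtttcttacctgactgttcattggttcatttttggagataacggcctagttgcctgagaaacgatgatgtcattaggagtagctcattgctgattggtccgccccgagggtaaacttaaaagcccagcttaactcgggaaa
Mcoln1 (chr8:3500269-3500568, plus strand): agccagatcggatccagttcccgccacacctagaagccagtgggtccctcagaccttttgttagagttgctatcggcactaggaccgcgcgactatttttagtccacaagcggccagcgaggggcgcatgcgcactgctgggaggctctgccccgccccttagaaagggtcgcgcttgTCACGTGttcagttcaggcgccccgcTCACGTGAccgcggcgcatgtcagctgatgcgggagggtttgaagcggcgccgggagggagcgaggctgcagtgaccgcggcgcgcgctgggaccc
Atp6v1a (chr16:44139210-44139509, minus strand): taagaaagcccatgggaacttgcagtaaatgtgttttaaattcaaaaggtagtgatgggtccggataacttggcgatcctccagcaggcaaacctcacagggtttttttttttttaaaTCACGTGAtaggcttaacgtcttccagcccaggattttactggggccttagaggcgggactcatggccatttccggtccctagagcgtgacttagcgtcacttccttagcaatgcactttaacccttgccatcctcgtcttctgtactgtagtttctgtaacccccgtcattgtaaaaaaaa
A match describes the letters only, and the windows carry no measurement of binding.

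**Figure D1:**
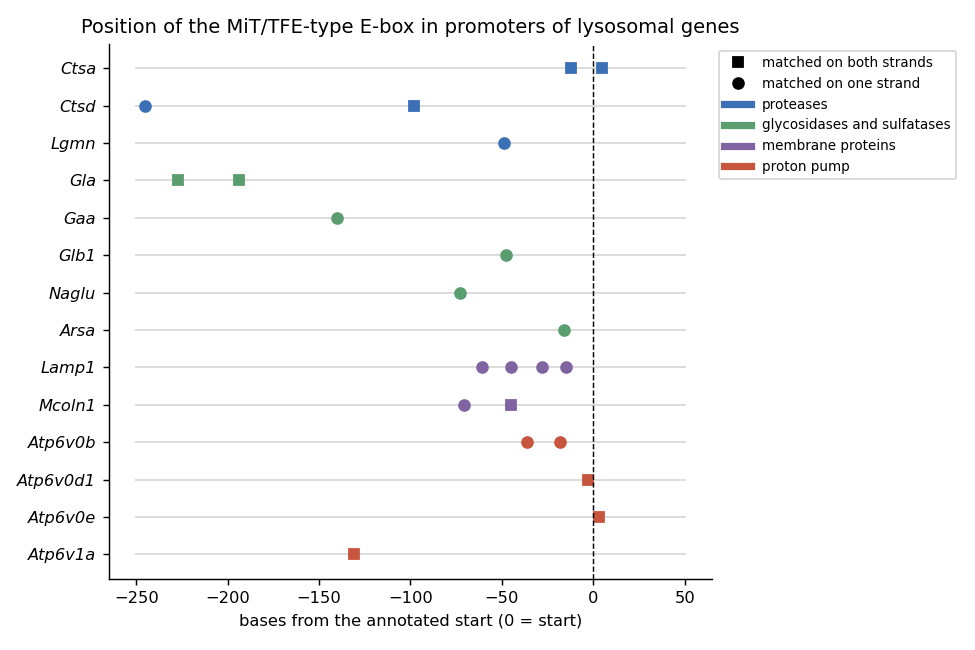
Distance of each TCACGTG core from the annotated start (x axis, bases, 0 is the start) for the 14 lysosomal genes with a match (y axis), coloured by class, with squares where both strands matched and circles where a single strand did. Of the 22 cores, 15 began within 100 bases before the start.

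The values are read counts per gene that were scaled per library and rounded (scaled counts here), and each library summed to between 5704313 and 5837994. Values of a gene are given in the order of libraries 1 to 3 of each group. Hdac2, the targeted gene, read 534, 482 and 518 across the WT libraries, then 392, 387 and 375 across the KO libraries. It was lower in each KO library without being absent, and which exons were deleted is not given in the labels. The groups differed by a log2 difference of -0.41 ± 0.057 (SE, 3 libraries against 3) with a limma adjusted p of 0.158. The macrophage markers were all detected, 18 of 18 with a mean of at least 100, while 8 of 9 neutrophil and 5 of 6 lymphoid markers were not in the table. Of 5 epithelial or lung carcinoma markers 3 were absent, and the rest summed to 25, 10 and 2 (WT), then 101, 74 and 78 (KO). Krt19 alone read 22, 10 and 1 (WT), then 95, 73 and 75 (KO). Of 7 dendritic cell markers 5 were absent, and the rest summed to 41, 18 and 27 (WT), then 52, 44 and 48 (KO). The libraries were not alike within WT. Xist RNA, made from an inactive X chromosome, was counted at 5243 in WT 1 and at 3298 to 4997 in KO, while WT 2 held 0 and WT 3 held 74. The Y-linked genes Ddx3y, Kdm5d, Eif2s3y and Uty were counted at 23 to 44 in WT 1, at 179 to 745 in WT 2 and WT 3, and at 0 to 10 in KO, so WT 1 held both Xist and some Y-linked RNA. On the first principal component (78.6% of the variance) WT 1 lay on the side of the KO libraries. The 16 genes listed for fibroblasts and marrow stroma gave a sum of 20223 for WT 1, of 8602 and 9160 for the other WT libraries, and of 20858 to 25820 for the KO libraries. Results are therefore given with all libraries, without WT 1, and for KO against WT 1 alone. Without WT 1, genotype and the Xist split cannot be told apart.

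With all 6 libraries 47 of the 52 lysosomal genes had a lower mean in KO (50.9% of all tested genes, and 57.3% of those with a mean of at least 100). The median log2 difference was -0.17, which is 88.9% of the WT level, and -0.085 after cyclic loess, a scaling that removes shifts tied to abundance. The median over all 13260 tested genes was -0.0046. In 33 of the 52 genes (63.5%) all KO values were smaller than all WT values, against 13.4% of all tested genes and 16.0% of the 9839 genes with a mean of at least 100, a floor that all 52 exceed. In 0 of the 52 did every KO library lie above, against 16.1% of all tested genes and 12.7% of those with a mean of at least 100. KO stood at 90 to 100% of WT in 16 genes, at 80 to 90% in 27 and below 80% in 4.

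With all libraries 0 of the 52 passed limma's adjusted threshold, as did 0% of all genes in either direction. The adjusted p of the 52 ran from 0.158, the smallest of any gene, to 0.902. At an unadjusted p under 0.05, 32 were lower and 0 higher, against 9.68% and 14.7% of all genes. Without WT 1, 11 of the 52 (21.2%) were lower and 1 higher past the adjusted threshold, against 5.07% and 12.8% of all genes. Those 12 had adjusted p-values from 0.0117 to 0.0392 in that comparison and from 0.0117 to 0.896 over all alternatives. Against WT 1 alone 44 of 52 were lower with a median of -0.11, and in 36 (69.2%) every KO library lay below WT 1, against 24.6% of all genes. In 1 of 52 every KO library lay above WT 1, against 28.4%.

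WT 2 was the highest library for 46 of the 52 genes and KO 1 the lowest for 34. Expressed as the median over genes relative to each gene's WT mean, the 52 reached 96.1%, 108% and 97.0% across WT libraries 1 to 3 and 85.8%, 88.1% and 91.6% across KO libraries 1 to 3. Together they took 1.05%, 1.20% and 1.09% of the library total in WT and 0.966%, 0.986% and 1.03% in KO, so all KO shares lay below all WT shares. The spread was wider in WT, where the SD was larger than in KO for 47 of 52 genes.

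Of the 18 macrophage markers, 12 (66.7%) were lower in every KO library, against 16.0% of tested genes with a mean of at least 100. The median difference of the 18 was -0.17, and their sum was 22032 to 22657 in WT and 20693 to 21210 in KO. The KO mean was higher for 4 markers, Cx3cr1 (0.39), Mertk (0.18), Aif1 (0.16) and Mrc1 (0.057). Without WT 1, 3 of the 18 markers (16.7%) passed as lower, against 5.07% of all tested genes. As higher 1 of 18 passed, Cx3cr1 (limma adjusted p = 0.0090), against 12.8% of all tested genes. The markers include Lyz2, from which the Cre was driven, and Cd68 and Laptm5, which also count as lysosomal membrane proteins. In bulk RNA, fewer cells of a type and less RNA per cell cannot be told apart. Among the stromal genes, 14 of 14 tested had a higher KO mean. The part of cell composition and of the Xist split in the differences was not tested.

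**Figure D2:**
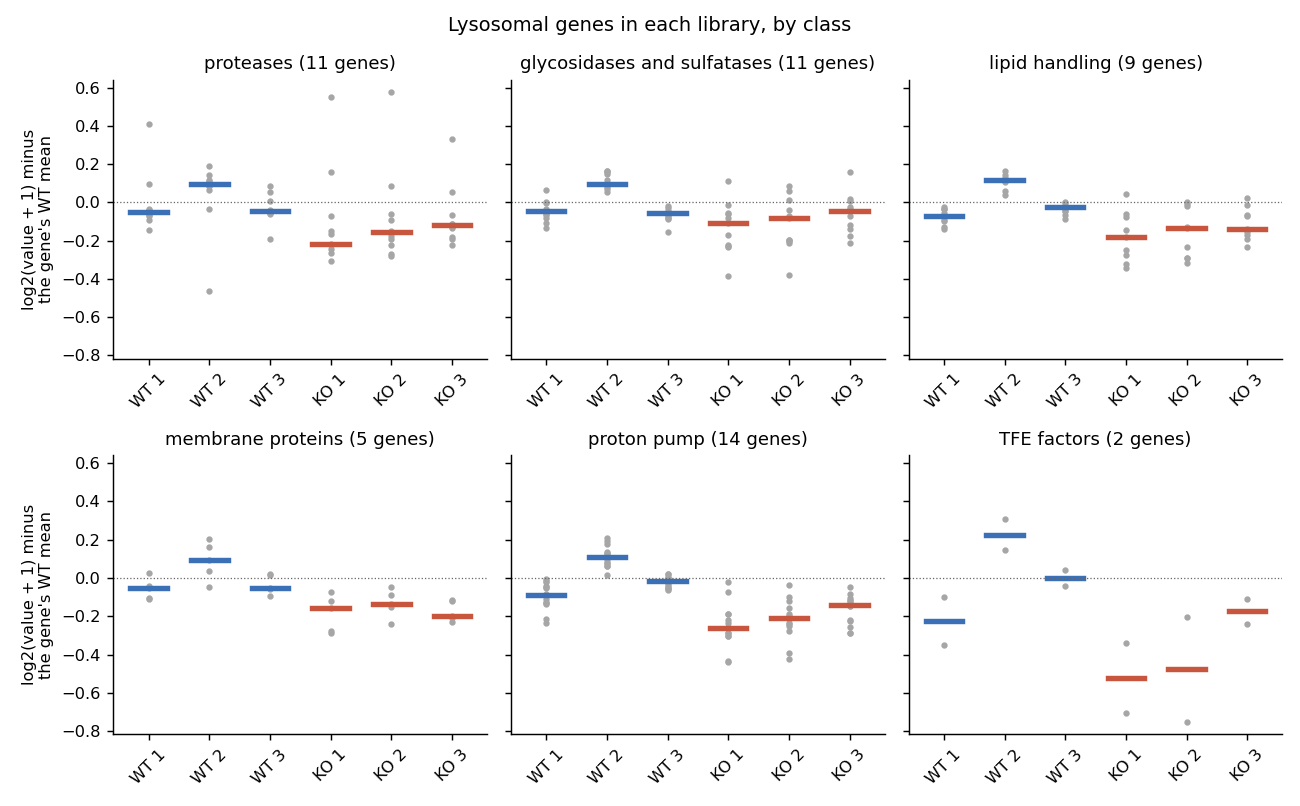
Each point is a gene, placed by its log2(value + 1) in a library minus its own WT mean (y axis), for the 6 libraries (x axis) in a panel per class; bars are the class median in that library, blue for WT and red for KO. The KO medians lie below 0 in every class, and WT 2 has the highest median in every class.

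In the proton pump all 14 genes had a lower mean in KO, with a median log2 difference of -0.20. In 11 of 14 (78.6%) the groups did not overlap, with KO lower, against 16.0% of tested genes with a mean of at least 100. Against WT 1 alone all 14 were lower, with a median of -0.12. In 13 of them (92.9%) every KO library lay below WT 1, against 24.6% of all tested genes. All 14 were also lower after cyclic loess, with a median of -0.16. Without WT 1, 5 genes (35.7%) passed the adjusted threshold, all lower, against 5.07% of all tested genes.

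Among the 5 V0 genes the largest difference was in Atp6v0a1 (mm10 chr11:101009452-101063719), which encodes an isoform of the large membrane subunit that steers the pump to a compartment. It read 2097, 2852 and 2506 scaled counts across the WT libraries, then 1816, 1836 and 2019 across the KO libraries. The groups did not overlap, and WT 1 lay close to KO 3. The log2 difference was -0.38 ± 0.12 (SE), and without WT 1 it was -0.50 with an adjusted p of 0.0127. Atp6v0e, a small V0 subunit, read 426, 463 and 427 (WT), then 385, 384 and 397 (KO), also without overlap, a difference of -0.17 ± 0.056. The proteolipid gene Atp6v0c, whose product forms the rotating ring, differed by -0.20 without overlap, while Atp6v0b, another ring subunit (-0.18), and Atp6v0d1, which links ring and stalk (-0.072), overlapped between the groups.

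The 7 V1 genes had a median of -0.23. Atp6v1b2 (mm10 chr8:69088646-69113711), the nucleotide-binding B subunit, read 1506, 2001 and 1772 across the WT libraries, then 1295, 1331 and 1430 across the KO libraries. Every KO library was below every WT library, and WT 1 was again the closest to them. Its difference was -0.37 ± 0.11 with all libraries, -0.48 without WT 1 (adjusted p = 0.0117) and -0.16 against WT 1 alone. Atp6v1a, the catalytic A subunit, read 2053, 2472 and 2268 (WT), then 1828, 1894 and 1939 (KO), a difference of -0.26 ± 0.076.

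Among the other V1 subunits, Atp6v1c1, a subunit that takes part in the joining of V1 to V0, read 952, 1140 and 1030 across the WT libraries, then 842, 856 and 869 across the KO libraries, with a tight KO group, and differed by -0.28 ± 0.072. Atp6v1h, the regulatory H subunit, differed by -0.23 ± 0.057, and its 3 KO values lay within 612 to 628. Both passed without WT 1, with adjusted p-values of 0.0179 and 0.0263. Atp6v1e1 (-0.22) and Atp6v1f (-0.20) did not overlap between groups. Atp6v1d was the V1 gene with the smallest difference, with 528, 554 and 511 across the WT libraries, then 523, 517 and 480 across the KO libraries, which overlap.

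Both accessory genes lie on the X chromosome. Atp6ap1, a helper of pump assembly, read 1264, 1407 and 1250 across the WT libraries, then 1121, 1169 and 1192 across the KO libraries, a difference of -0.17 ± 0.061. Atp6ap2, also called the prorenin receptor, read 900, 920 and 911 (WT), then 798, 836 and 847 (KO), a difference of -0.14 ± 0.043. Neither overlapped, and the WT values of Atp6ap2 were within 900 to 920. Per kilobase of exonic sequence, the mean level of the pump genes ran from 69.4 scaled counts for Atp6v1h to 408 for Atp6ap1. The length used is the union of all annotated exons, 9746 bases for Atp6v1h and 1793 for Atp6v0d1 (405 per kilobase). Their WT means were 731 and 744 scaled counts, so the values per length do not compare transcript levels.

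**Figure D3:**
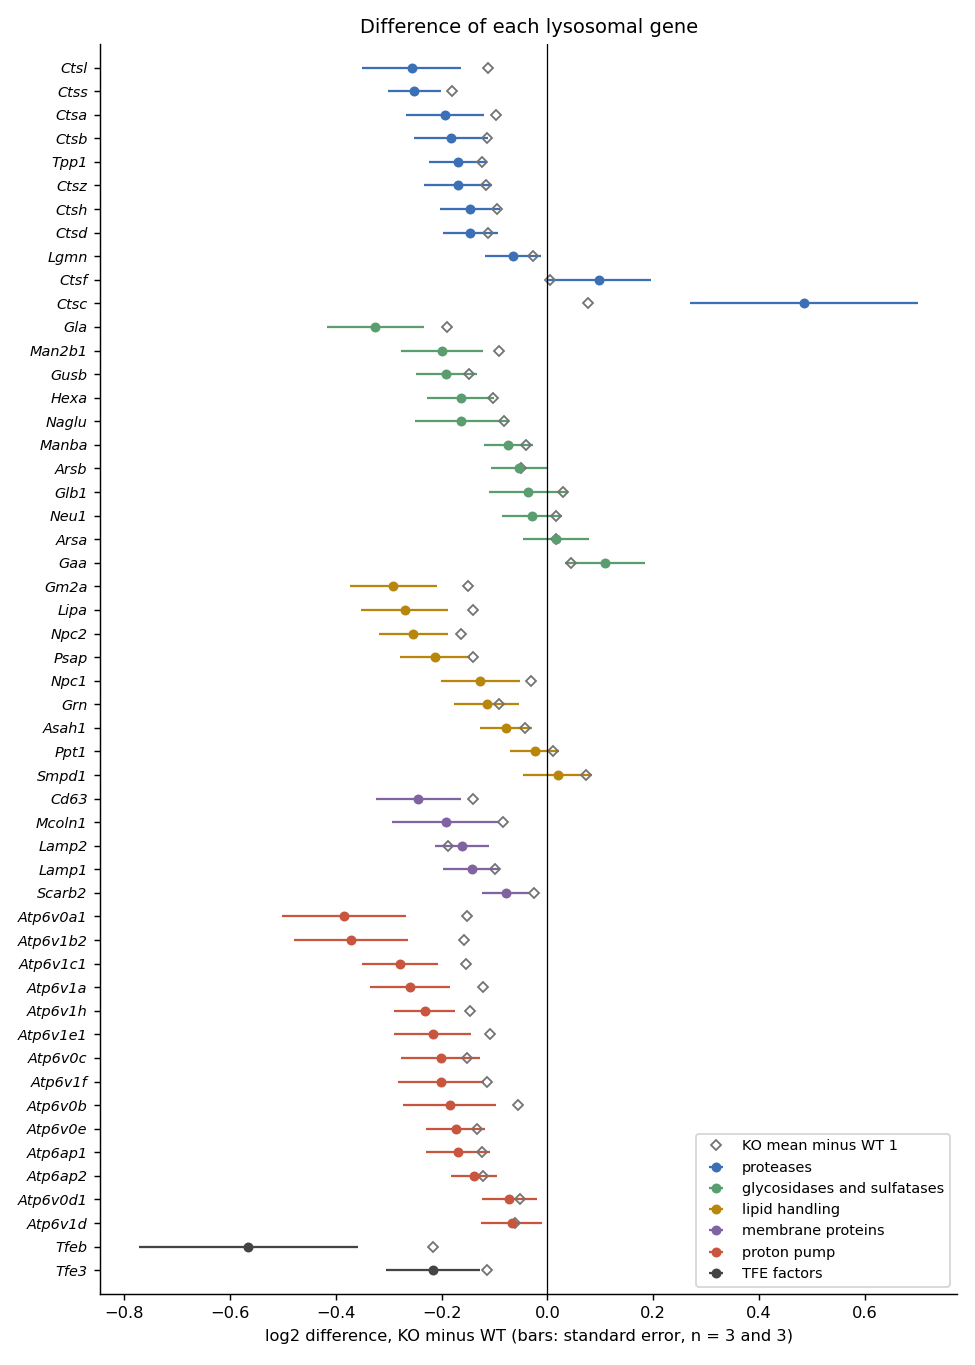
Log2 difference between KO and WT (x axis) for each of the 52 genes (y axis), coloured by class, with bars for the standard error over 3 and 3 libraries; open diamonds give the KO mean minus WT 1 alone. Of the 52 genes 47 lie below 0, Ctsc lies farthest above it at 0.49, and Tfeb farthest below it at -0.57.

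Both transcription factors had a lower KO mean. Tfeb (mm10 chr17:47737030-47792419) read 398, 628 and 522 across the WT libraries, then 311, 301 and 429 across the KO libraries, and KO 3 lay above WT 1, so the groups overlapped. The difference was -0.57 ± 0.21, the most negative among the 52, and -0.22 against WT 1 alone. It passed without WT 1 (-0.74, adjusted p = 0.0392) and not with all libraries (adjusted p = 0.175). Tfe3, on the X chromosome, read 1106, 1312 and 1151 across the WT libraries, then 939, 1030 and 1101 across the KO libraries, with the closest values 1101 and 1106, and differed by -0.22 ± 0.088.

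Of their relatives outside the 52, Mitf, which drives lysosomal and osteoclast genes, read 833, 1113 and 1155 across the WT libraries, then 701, 775 and 776 across the KO libraries, without overlap, and differed by -0.45 ± 0.13 (adjusted p = 0.158, and 0.0032 without WT 1). Tfec, a macrophage-restricted relative, read 187, 142 and 175 (WT), then 196, 228 and 143 (KO), which overlap, with a difference of 0.15 ± 0.20. Of the 16 tested genes of the Rag, Ragulator and folliculin system that controls where TFEB resides, 12 had a lower KO mean and 3 (18.8%) did not overlap, near the share of all genes. Those 3 were Lamtor4 (-0.25), Fnip2 (-0.25) and Lamtor5 (-0.16).

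Among the proteases 9 of 11 genes were lower in every KO library (81.8%), against 16.0% of tested genes with a mean of at least 100. The class median was -0.17, or -0.074 after cyclic loess. Ctss (mm10 chr3:95526786-95556403), a cysteine protease that trims the invariant chain of MHC class II, had the smallest p of the class. It read 1131, 1244 and 1192 across the WT libraries, then 989, 986 and 1019 across the KO libraries. The gap between the groups was wider than the KO range, and the difference was -0.25 ± 0.050, or -0.18 against WT 1. It was the protease that passed as lower without WT 1 (adjusted p = 0.0167). Ctsl, a broad cysteine endoprotease, read 1120, 1413 and 1200 (WT), then 1001, 1018 and 1093 (KO), a difference of -0.26 ± 0.093.

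Among the aspartic and serine proteases, Ctsd, the main aspartic protease, read 1040, 1130 and 1026 across the WT libraries, then 949, 955 and 983 across the KO libraries, without overlap, a difference of -0.15 ± 0.052. Tpp1, which removes tripeptides, read 1674, 1830 and 1682 (WT), then 1478, 1556 and 1575 (KO), a difference of -0.17 ± 0.055. The remaining genes without overlap, Ctsa, Ctsb, Ctsh, Ctsz and Lgmn, differed by -0.19, -0.18, -0.15, -0.17 and -0.065, and the small difference of Lgmn, the asparagine-specific protease that processes cathepsins, was 0.023 under cyclic loess.

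Ctsc (mm10 chr7:88278085-88310888) ran against the class. This dipeptidyl peptidase, which activates granule serine proteases, read 1474, 805 and 1154 across the WT libraries, then 1629, 1654 and 1396 across the KO libraries. WT 1 lay above KO 3, so the groups overlapped, and WT 2, the highest library for most of the other genes, was the lowest here. The difference was 0.49 ± 0.22 with all libraries (adjusted p = 0.232), 0.69 without WT 1 (adjusted p = 0.0390) and 0.077 against WT 1. Ctsf, with the lowest level of the 52 per exonic base, read 271, 272 and 222 (WT), then 283, 269 and 264 (KO), and its difference was 0.098 ± 0.097, with overlapping groups.

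Glycosidases and sulfatases had a class median of -0.074. In 5 of 11 (45.5%) the groups did not overlap, with KO lower, against 16.0% of tested genes with a mean of at least 100. The median was -0.014 after cyclic loess and -0.046 without WT 2. The enzyme that differed most was Gla (mm10 chrX:134588149-134601125), the X-linked α-galactosidase A that clears globotriaosylceramide, with 1048, 1291 and 1126 across the WT libraries, then 882, 884 and 993 across the KO libraries. Its groups were apart, with a difference of -0.33 ± 0.092, and it passed without WT 1 (adjusted p = 0.0330). Gusb, β-glucuronidase, read 1939, 2131 and 1930 (WT), then 1698, 1740 and 1812 (KO), a difference of -0.19 ± 0.058.

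Hexa and Man2b1 followed. Hexa, the α subunit of β-hexosaminidase, read 1346, 1523 and 1349 across the WT libraries, then 1246, 1222 and 1291 across the KO libraries, a difference of -0.16 ± 0.063. Man2b1, an α-mannosidase, read 2170, 2611 and 2256 (WT), then 2004, 2036 and 2070 (KO), a difference of -0.20 ± 0.077, with WT 2 apart from the other WT libraries. Manba, the β-mannosidase, was the remaining gene without overlap, with a difference of -0.074.

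The others in this class overlapped between groups. Gaa, which breaks down glycogen, read 1082, 1103 and 930 across the WT libraries, then 1117, 1080 and 1154 across the KO libraries, with the most positive difference of the class, 0.11 ± 0.076. Arsa, which desulfates sulfatide, differed by 0.016, and Arsb, Neu1, Glb1 and Naglu by -0.053, -0.029, -0.036 and -0.16. Within the class, differences thus ran from -0.33 to 0.11, and 4 of the 5 genes with TCACGTG in their window (Gaa, Glb1, Naglu and Arsa) were among those that overlapped. Over all classes the median was -0.15 in the 14 genes with TCACGTG, 7 without overlap, and -0.17 in the 31 without it, 21 without overlap. Among tested genes with a mean of at least 100 the share without overlap, with KO lower, was 16.0%. The 7 genes without a window are in neither group, and the part of the motif in the differences was not tested.

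Of the 9 lipid-handling genes 8 had a lower KO mean, with a median of -0.13. In 4 (44.4%) the groups did not overlap, with KO lower, against 16.0% of tested genes with a mean of at least 100. The median was -0.015 after cyclic loess and -0.061 without WT 2. Gm2a (mm10 chr11:55098115-55113029), the GM2 activator protein that presents gangliosides to hexosaminidase, read 1000, 1233 and 1087 across the WT libraries, then 881, 884 and 939 across the KO libraries. Npc2, which carries cholesterol inside the lysosome, read 1576, 1815 and 1652 (WT), then 1384, 1372 and 1469 (KO), and Lipa, the acid lipase that frees cholesterol from its esters, 1923, 2300 and 2102 (WT), then 1656, 1716 and 1868 (KO). None of these genes overlapped between groups, and their differences were -0.29 ± 0.083, -0.25 ± 0.066 and -0.27 ± 0.082. All 3 passed without WT 1, with adjusted p-values of 0.0245, 0.0319 and 0.0347.

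Psap, which encodes the precursor of the saposin activators, had the highest level per exonic base of the 52, with 2263, 2579 and 2308 across the WT libraries, then 2001, 2026 and 2136 across the KO libraries, a difference of -0.21 ± 0.065 without overlap. The other 5 genes overlapped. Npc1, the membrane partner of Npc2, differed by -0.13, Grn, which encodes progranulin, by -0.11, the acid ceramidase gene Asah1 by -0.078, and Ppt1, a thioesterase that removes palmitate from proteins, by -0.024. Smpd1, acid sphingomyelinase, read 451, 509 and 447 (WT), then 483, 466 and 475 (KO), which overlap (0.020 ± 0.065).

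All 5 membrane proteins had a lower mean in KO, with a median of -0.16. In 3 (60.0%) the groups did not overlap, with KO lower, against 16.0% of tested genes with a mean of at least 100. The median was -0.052 after cyclic loess and -0.095 without WT 2. Lamp2 (mm10 chrX:38401357-38456454), an X-linked glycoprotein of the lysosomal coat that also serves chaperone-mediated autophagy, read 2080, 1978 and 2069 across the WT libraries, then 1879, 1861 and 1738 across the KO libraries. It departed from the common order, since WT 2 was the lowest WT library and the difference was as large against WT 1 (-0.19) as with all libraries (-0.16 ± 0.051). Lamp1, its relative, read 1641, 1809 and 1632 (WT), then 1518, 1524 and 1554 (KO), a difference of -0.14 ± 0.054. Cd63, a tetraspanin of late endosomes, read 568, 683 and 586 (WT), then 499, 516 and 531 (KO), a difference of -0.24 ± 0.080.

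Mcoln1 and Scarb2 overlapped between the groups. Mcoln1, the calcium channel that links the lysosome to TFEB, read 574, 713 and 580 across the WT libraries, then 510, 583 and 535 across the KO libraries, a difference of -0.19 ± 0.10. Scarb2, the receptor that carries glucocerebrosidase to the lysosome, read 1310, 1393 and 1372 (WT), then 1290, 1316 and 1255 (KO), a difference of -0.078 ± 0.045. Over all classes the 5 X-linked genes (Gla, Lamp2, Atp6ap1, Atp6ap2 and Tfe3) had a median of -0.17, the same as the 47 autosomal genes. All 5 were lower in every KO library, as were 28 of the 47 autosomal genes (59.6%). Among tested genes with a mean of at least 100 that share was 16.0%. Against WT 1 alone the counts were 5 and 31 (66.0%), against 24.6% of all tested genes.

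**Figure D4:**
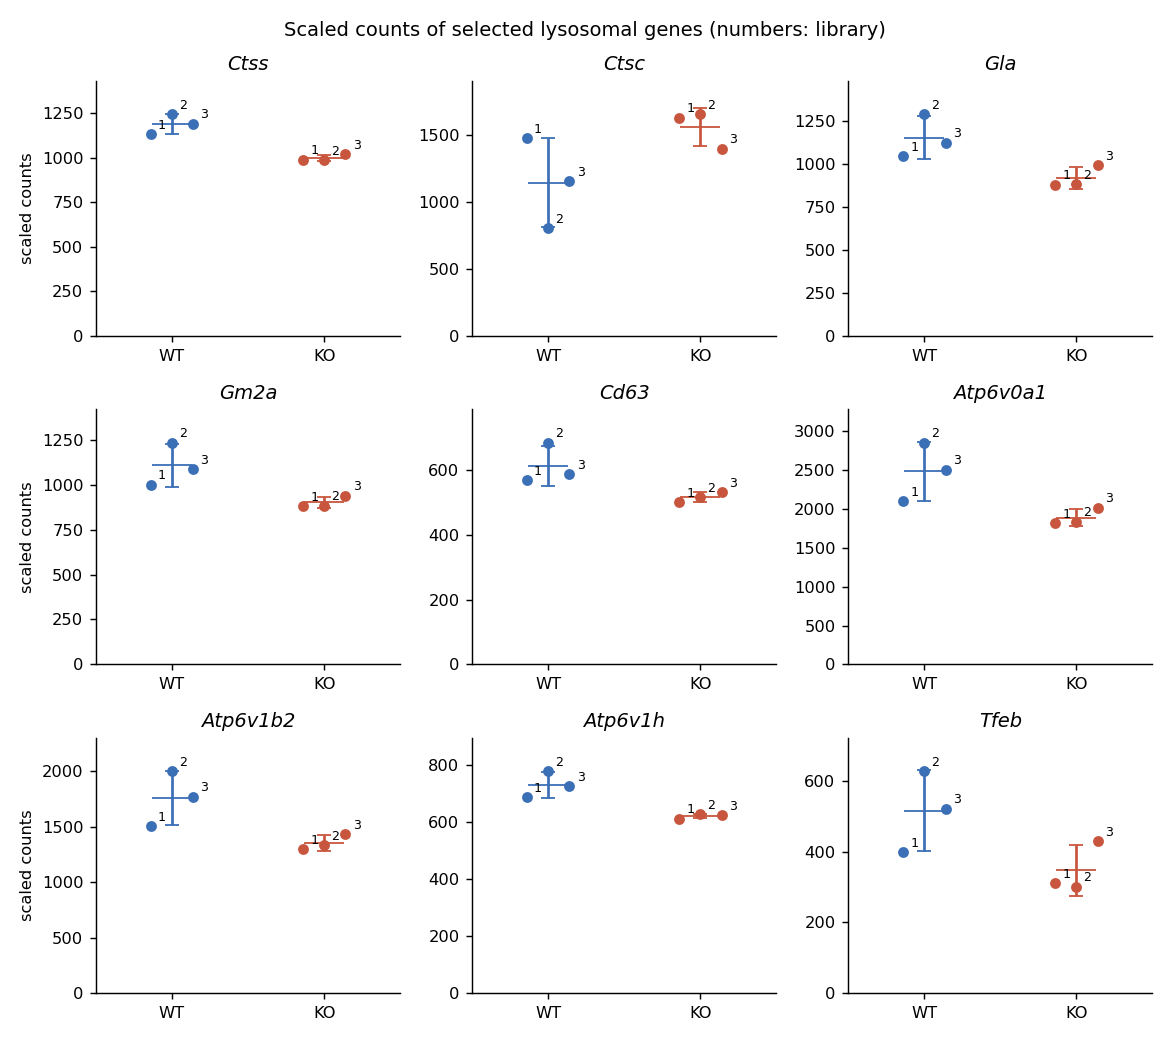
Scaled counts (y axis, from 0) of 9 lysosomal genes in WT and KO; points are libraries, labelled by number, and bars are the mean and SD (n = 3). Atp6v0a1, Atp6v1b2, Atp6v1h, Ctss, Gla, Gm2a and Cd63 show no overlap between groups, Tfeb overlaps through WT 1 and KO 3, and Ctsc is higher in the KO mean.

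Lysosomal genes outside the 52 were taken from lists by function. Of 5 other pump subunits tested, 5 had a lower KO mean, and Atp6v0d2, a V0 subunit induced in osteoclasts and macrophages, read 1144, 1395 and 1465 across the WT libraries, then 854, 895 and 927 across the KO libraries (-0.57 ± 0.099). Tcirg1, the a3 subunit of the osteoclast pump, read 1564, 1960 and 1669 (WT), then 1325, 1390 and 1450 (KO) (-0.31 ± 0.091). Both are clear of overlap, and both passed without WT 1 (adjusted p = 0.0014 and 0.0326). Atp6v0d2 is also an osteoclast marker. The 9 osteoclast markers in the table, Atp6v0d2 included, summed to 3287, 4735 and 4319 across the WT libraries and to 2747, 2815 and 3188 across the KO libraries. Of the 7 tested, 4 had a lower KO mean and 3 a higher one, with a list median of -0.57. Lower were Dcstamp (-2.46), Mmp9 (-1.45), Acp5 (-1.14) and Atp6v0d2. These 4 of 7 (57.1%) passed the adjusted threshold as lower without WT 1, against 5.07% of all tested genes. Higher were Ctsk (0.21), Nfatc1 (0.088) and Itgb3 (0.077), with Nfatc1 higher in every KO library. The part of osteoclast markers in these differences was not tested.

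Of 30 other hydrolases tested, 26 had a lower KO mean (list median -0.16), and 10 (33.3%) did not overlap as lower and 2 as higher. Over all tested genes these shares were 13.4% and 16.1%. Acp5, the tartrate-resistant phosphatase and another osteoclast marker, read 163, 243 and 276 across the WT libraries, then 94, 110 and 98 across the KO libraries (-1.14 ± 0.20), a larger difference than in any of the 52. Ppt2, a relative of Ppt1, differed by -0.42 ± 0.10 and Ctso by -0.18 ± 0.047, both without overlap. Of 24 other membrane proteins, 20 had a lower KO mean. In 8 (33.3%) the groups did not overlap with KO lower, and in 1, Laptm4b (0.30), with KO higher. The smallest p-values were those of the nucleoside transporter Slc29a3 (-0.27), the peptide transporter Slc15a3 (-0.28) and Cd68 (-0.18).

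Sorting and autophagy genes had medians nearer 0. Of 13 sorting and activation genes, 12 had a lower KO mean with a median of -0.11, and 3 (23.1%) did not overlap, against 13.4% of all tested genes and 16.0% of those with a mean of at least 100. The smallest p-values were those of Cln8 (-0.33), Gnptab (-0.17), which starts the mannose 6-phosphate tag, and its receptor M6pr (-0.12). Of 25 autophagy genes, 21 were lower with a median of -0.096, and 7 (28.0%) did not overlap as lower, among them Gabarapl1 (-0.36) and Rab7 (-0.17), while Wipi1 was higher in every KO library (0.38). Among 5 protease inhibitors Cstb (-0.24) and Cst3 (-0.18) were lower without overlap, and Cst7, cystatin F, was higher, with 37, 26 and 26 across the WT libraries, then 48, 57 and 48 across the KO libraries. None of these genes passed the adjusted threshold with all libraries.

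Levels were also set against exonic length. Of the 52, 8 had a mean above 0.5 scaled counts per exonic base, against 63 of the 17297 genes with a length. Psap and Ctss were the highest, at 0.809 and 0.805, followed by Ctsz at 0.735 and Hexa at 0.666. The submitters' processing notes name Picard, a tool that can mark duplicate reads, without its role. Whether reads with the same start were counted once was not tested. A transform that assumes it, chosen after the data were seen, put Ctss at -0.66 in place of -0.25, Psap at -0.59 in place of -0.21, Ctsz at -0.37 in place of -0.17, Tfeb at -0.59 in place of -0.57 and the median of the 52 at -0.22 in place of -0.17. As deposited, the difference showed little relation to the level per base across the 52 genes (Spearman rho of -0.059, a description over genes that share libraries).

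**Figure D5:**
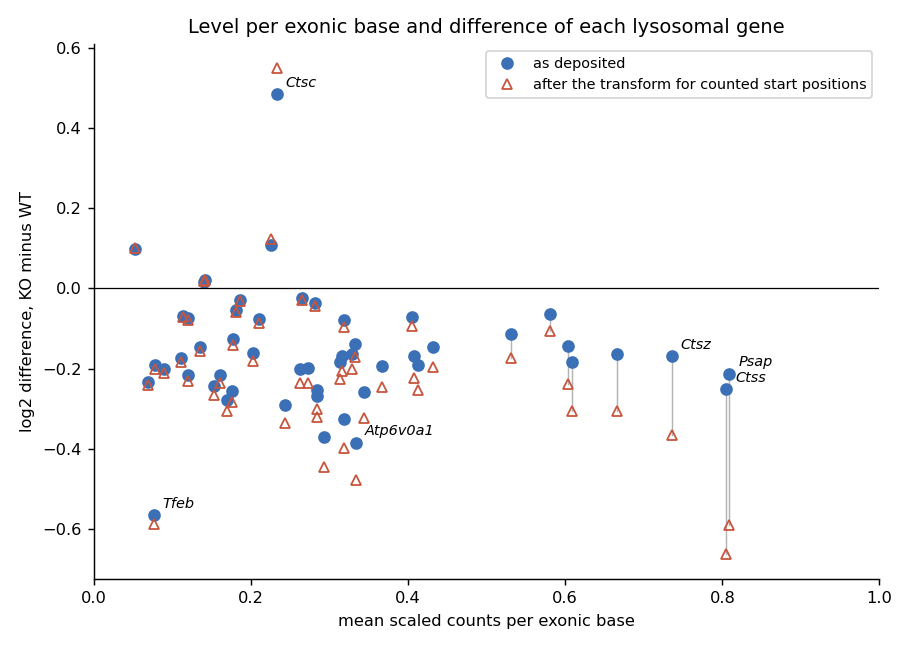
Mean scaled counts per exonic base over the 6 libraries (x axis) against the log2 difference between KO and WT (y axis) for the 52 genes, as deposited (filled circles) and after the transform for counted start positions (open triangles), joined by lines for the 8 genes above 0.5. The transform lowers Ctss to -0.66 and Psap to -0.59 and leaves genes at low levels nearly in place.

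Some members share sequence with other genes. Exons of 16 of the 52 overlap exons of another annotated gene, mostly on the opposite strand, and although the library kit kept strand, how the counting treated strand was not given in the sources used. The partners with means above 300 scaled counts are Pltp for Ctsa, Cap1 for Ppt1, Rmc1 for Npc1, Nelfcd for Ctsz (10 shared bases) and Tmppe for Glb1. Atp6v0c has a processed copy, Atp6v0c-ps2, that matches at 99.8% over 465 bases and was counted at a mean of 5.5, and Cd63 has Cd63-ps, at 98.0% over 858 bases with a mean of 14.2. The authors' counting could split reads between a gene and its copy, so the values of Atp6v0c and Cd63 are uncertain to that extent. The same holds for Atp6v1f and Atp6ap2, which have copies at 97.5% over 360 bases and 98.4% over 438 bases. Ctsl shares stretches of 149 to 191 bases, and Atp6v0e stretches of 73 to 90 bases, with many other genes at an identity of at least 95%, and their values are uncertain in the same way.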

How the data were processed

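The deposited table holds whole numbers per Ensembl gene for 6 libraries, which were treated as a score: read counts that the authors scaled per library and rounded. Raw depth is therefore unknown and no count model was used. Input was 3 µg of total RNA, a stranded mRNA kit and reads 72 bases long, per the labels' protocols. The submitters' processing notes list mm10, STAR 2.7.10a, featureCounts 2.0.3, DESeq2 1.36.0, Trimmomatic 0.39 and Picard 2.27.4, with no role or order.

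A gene was tested (13260 genes) if 3 or more libraries reached 10. The test was limma 3.58.1 (R 4.3.3, trended variance) on log2(value + 1), two-sided, with group as its single term and Benjamini-Hochberg adjustment over all genes at 0.05. Differences are KO minus WT on that scale, which understates changes of low values. Exonic lengths are unions of GENCODE M21 exons (99.1% of matched genes had identical coordinates). Similar copies were sought with BLAST 2.17.0. On data simulated for KO against WT (13260 genes, 200 changed) 64% of 2-fold and 86% of 4-fold changes were recovered, with 8 false calls. In the measured data 0 genes passed with all libraries, although Uty differed by -6.95 and Dcstamp by -2.46. The simulated rates therefore do not describe recovery in the measured libraries. The differences of the 52 genes, from -0.57 to 0.49 on the log2 scale, were all smaller than 2-fold. Recovery of changes of that size was not simulated. Members and lists were chosen with earlier results of these data known. Library values are printed for up to 4 genes per class with the smallest p, the most positive gene of a class, the pump sectors' leading genes, both TFE factors and, of each further list, up to 3 leading genes.

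Alternatives were other scalings, pseudocounts and filters, each library left out, WT 1 as the only WT library, a replicate block and, added after seeing the data, a transform for start positions.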

Additional observations from a re-analysis of the deposited data

How the results depend on the processing

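Genes past the adjusted threshold numbered 0, and lysosomal genes 0, under every alternative run except leaving out WT 1, which gave 2363 and 12. Leaving out single libraries therefore gave 0 to 2363 and 0 to 12. The 33 lysosomal genes without overlap became 26 under cyclic loess, for which the share of all genes is not given. With a library left out the count was 33 to 41. Leaving out a library cannot lower this count, so that range is no check on it. Cyclic loess put the median difference at -0.085 for all 52 genes, -0.074 for proteases, -0.014 for glycosidases and sulfatases, -0.015 for lipid handling and -0.052 for membrane proteins, and 41 of the 52 stayed below 0. The cause was not tested. With WT 1 as the only WT library the medians were -0.099 for membrane proteins and -0.17 for the TFE factors. Over single libraries left out, the median ranged from -0.20 to -0.12 for all 52 genes, from -0.19 to -0.12 for proteases, from -0.091 to -0.046 for glycosidases and sulfatases, from -0.17 to -0.061 for lipid handling, from -0.18 to -0.095 for membrane proteins, from -0.25 to -0.15 for the pump and from -0.50 to -0.28 for the TFE factors, and the value nearest 0 was that without WT 2 each time.

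Small differences changed sign. Cyclic loess gave 0.023 for Lgmn, 0.024 for Glb1, 0.019 for Neu1, 0.022 for Arsb, 0.044 for Ppt1 and 0.0094 for Scarb2. WT 1 alone gave 0.029 for Glb1, 0.017 for Neu1 and 0.011 for Ppt1. Leaving out a library put Glb1 between -0.079 and 0.039, Neu1 between -0.053 and 0.018, Ppt1 between -0.042 and 0.0048, Arsa between -0.023 and 0.056, and Smpd1 between -0.014 and 0.080.

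Deviations of same-numbered WT and KO libraries correlated at 0.53, -0.36 and 0.024 across genes, so the numbers were not taken as pairs. With the replicate block 0 genes passed and the median of the 52 was -0.17. Raw depth is unknown, so no counting error is given.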
